A study of Mus musculus with 8 samples.

Results

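Colonic macrophages in whose barcodes no Cd4 transcript was counted are described here. They were found in 8 droplet single-cell RNA libraries from mouse colonic lamina propria, the connective tissue under the gut epithelium. Among barcodes with at least 400 genes and under 20% mitochondrial transcripts, a member had at least 10 unique molecular identifiers (UMIs, each standing for 1 captured transcript molecule) of the complement genes C1qa, C1qb and C1qc together. A member also had no UMI of Cd4, Cd3d, Cd3e or Cd3g, at most 2 of the collagen gene Col3a1 and at most 1 of the B cell gene Cd79a. The rule took 3698 of 96721 such barcodes (3.82%). They made up 60.4% of the 6126 barcodes that met the other limits, and the remaining 2428 held at least 1 Cd4 UMI. Of those 2428 Cd4-positive macrophages, 2061 (84.9%) were on the list of cells that the authors kept, and of the Cd4-negative members 0 were.

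Mice were C57BL/6, 10 to 12 weeks old, and either wildtype (WT) or mutants of RORgt, the nuclear receptor of type 17 lymphocytes. The series calls the mutants RORgtS182A, while the titles of all 4 mutant libraries read S203AKI. The labels do not say how the names relate, so every genotype comparison rests on taking them as the same line. They drank plain water, or water with 2% dextran sulfate sodium (DSS), a polymer that damages the epithelium of the colon, for 7 days followed by 3 days without it. All were taken on day 10. Each of the 4 groups (WT untreated, mutant untreated, WT DSS and mutant DSS) held 2 libraries, stated to be independent biological replicates and numbered 1 and 2 here only as names. Cells were released with collagenase, DNase and dispase and passed through a CD4+ T cell isolation kit before loading, so a macrophage had to come through a T cell enrichment to be counted, and its share of a library is a share of what that step left.

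Gut macrophages are replenished largely by blood monocytes, which enter through the chemokine receptor CCR2, lose Ly6C and acquire MHC class II, CX3CR1 and complement genes as they mature in the tissue. A longer-lived subset near vessels and nerves carries markers such as LYVE1, FOLR2, TIM-4 and, in mice, CD4 itself. The mature cells engulf dying cells, present antigen to T cells and release factors that act on the epithelium after injury.

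The libraries gave 761 and 616 members in WT untreated 1 and 2, 550 and 273 in mutant untreated, 275 and 396 in WT DSS and 399 and 428 in mutant DSS. Their summed UMIs per library ran from 874741 to 2848390. The median UMIs per member were 3344 and 4205 in WT untreated, 4596 and 4777 in mutant untreated, 2913 and 2829 in WT DSS and 2860 and 3432 in mutant DSS. No member barcode was shared between libraries, although 1196 barcodes of all kinds were shared over the 28 pairs of libraries. Among the DSS libraries, mutant DSS 2 had the lowest class II and the highest Chil3 and Saa3 levels, and results that touch it are given with the values of the other libraries.

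Members carried a macrophage profile beyond the complement genes that chose them. The receptor Csf1r, through which macrophages receive their survival signal, lay between 653 and 877 CPM (counts per 1e6 UMIs, from UMI sums per library scaled by TMM normalization) in the 8 libraries. In all barcodes outside the macrophage gate (neither members nor Cd4-positive macrophages) it lay between 31.3 and 48.8 CPM, there scaled by totals alone. Those barcodes include some with a high C1q sum. Of 8144 barcodes with at least 10 C1q UMIs, 6126 met the other limits apart from Cd4. Members with a UMI of Csf1r numbered 1917 of 2200 untreated and 1224 of 1498 after DSS. Adgre1, which encodes the macrophage antigen F4/80, had a mean 22.0 times that of the other barcodes. C3ar1 (complement receptor, 21.9 times), Ms4a7 (21.5 times), Trem2 (lipid-sensing receptor, 20.6 times) and Pf4 (20.1 times) were the next named genes by this ratio, which is a description because the cells were chosen on transcripts. The most abundant transcripts included Cd74, Apoe, H2-Ab1, H2-Aa, Lyz2, Psap and Ctsb, and also Igkc and Igha, immunoglobulin genes of plasma cells.

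Complement C1q chose the members, and its level is given without a test. The median C1q sum per member was 26 UMIs (interquartile range 16 to 43). By library the medians were 26 and 38 in WT untreated, 42.5 and 39 in mutant untreated, 18 and 17 in WT DSS and 19 and 21 in mutant DSS. C1qa was at 4198 ± 394 CPM (SD, n = 4) untreated and 2882 ± 93.8 CPM after DSS, C1qb at 3812 ± 547 and 1858 ± 266 CPM, and C1qc at 2238 ± 183 and 1736 ± 158 CPM. The cut of 10 UMIs therefore lay closer to the middle of the DSS cells. Just inside it, 461 members had 10 to 12 C1q UMIs, and just outside it 615 barcodes had 7 to 9. In WT DSS 2, for example, Csf1r was at 684 CPM inside and 607 CPM outside, and in WT untreated 1 at 639 and 509 CPM. It was higher inside in 6 of the 8 libraries, and lower in WT untreated 2 (502 and 540 CPM) and mutant DSS 2 (481 and 592 CPM).

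Transcripts of other lineages were present in the member sums. The 8 listed T cell genes summed to 148 to 227 CPM in untreated and 99.8 to 201 CPM in DSS libraries. The 8 fibroblast genes summed to 174 to 270 and 121 to 317 CPM, and the 8 B or plasma cell genes to 2598 to 9121 and 2359 to 7363 CPM. Neutrophil genes summed to 51.9 to 64.1 and 55.9 to 74.4 CPM with Ly6g at 0 in every library, and squamous epithelial genes to 5.18 to 8.03 and 10.97 to 132 CPM with Dsg3 at 0. Lymphatic endothelial transcripts (Ccl21a, Mmrn1, Prox1 or Flt4) were found in 43 members. Only 603 members had no UMI of any of Trac, Trbc1, Trbc2, Col1a1, Col1a2, Igkc, Epcam and S100a9.

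The mean share of these cells among captured barcodes was lower after DSS, but the libraries of the treatments overlapped. Members made up 5.74% and 5.15% of barcodes in WT untreated, 5.22% and 2.48% in mutant untreated, 2.54% and 2.95% in WT DSS and 2.596% and 4.14% in mutant DSS. Mutant untreated 2 lay below every DSS library, and mutant DSS 2 above it and the other DSS libraries. The mean was 3.06% ± 0.744 (SD, n = 4) after DSS and 4.65% ± 1.47 (n = 4) without, a difference of -1.59 percentage points (two-sided exact permutation test, p = 0.143, adjusted p = 0.571 over 4 tests). With 1 library left out, that difference ranged from -2.31 (without mutant untreated 2) to -1.22 points (without WT untreated 1). Mutants had 3.61% ± 1.31 and WT 4.09% ± 1.58 (n = 4 each, exact permutation p = 0.629), a difference of -0.485 points that ranged from -1.02 (without mutant untreated 1) to 0.0627 (without WT untreated 1) with 1 library left out. The smallest p that 4 libraries against 4 can give is 0.0286. With at least 20 C1q UMIs required, the mean was 1.49% after DSS and 3.54% untreated (exact permutation p = 0.0571, n = 4 each). C1q counts chose the members and were lower after DSS. The stricter cut therefore cannot tell fewer cells from fewer C1q UMIs per cell.

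Between 55.8% and 64.1% of gated macrophages had no Cd4 transcript counted. Macrophages without a Cd4 UMI made up 61.1% and 64.1% of all gated macrophages in WT untreated, 55.8% and 57.8% in mutant untreated, 57.4% and 62.1% in WT DSS and 63.5% and 59.6% in mutant DSS. The means were 60.7% ± 2.70 after DSS and 59.7% ± 3.64 untreated (n = 4 each, two-sided exact permutation p = 0.714), and 59.2% ± 3.27 in mutants and 61.2% ± 2.80 in WT (exact permutation p = 0.371). Whether a Cd4 UMI is seen depends on depth, and members were shallower in 3 of the 4 DSS libraries than in any untreated one (all but mutant DSS 2). When every macrophage was thinned to 1000 UMIs, the share without Cd4 was 86.0% and 86.4% in WT untreated, 85.2% and 85.9% in mutant untreated, 83.8% and 80.0% in WT DSS and 82.9% and 83.9% in mutant DSS. All 4 DSS libraries then lay below all 4 untreated libraries, with a difference of -3.24 percentage points (exact permutation p = 0.0286, the smallest possible with n = 4 each). This p was not adjusted. The macrophages were gated before thinning on a C1q sum that was lower after DSS, and the part of that was not tested. The difference before thinning (0.931 points) had no stable direction, since it was also -1.24 points with at least 20 C1q UMIs, -0.365 without mutant untreated 1 and -0.028 without mutant DSS 1. A member is a macrophage without a counted Cd4 transcript, not one shown to lack CD4.

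**Figure D1:**
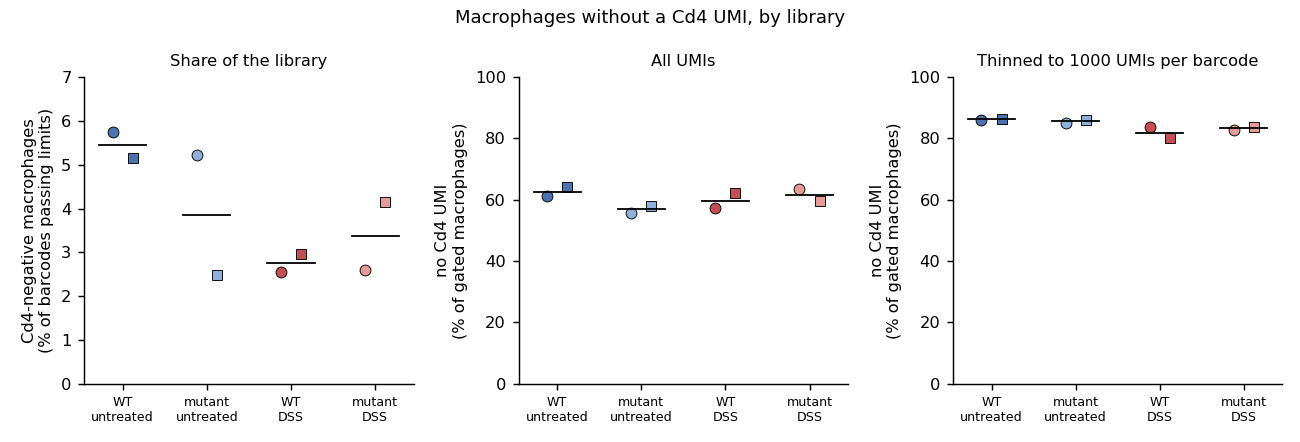
Share of Cd4-negative macrophages per library, as a percentage of all barcodes that passed the limits (left), and share without a Cd4 UMI among gated macrophages before (middle) and after (right) thinning each barcode to 1000 UMIs. Points are libraries (circle, replicate 1; square, replicate 2) and bars are means of 2; mutant untreated 2 sits at 2.48% against 5.15% to 5.74% in the other untreated libraries.

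After DSS these macrophages had less transcript of the class II antigen presentation genes, of Cxcl9 and Gbp2b, and of the tissue-subset gene Folr2. They had more of Ptgs2 (prostaglandin synthesis), Vegfa (repair and matrix), Mertk (engulfment) and Thbs1, a matrix protein gene counted in the monocyte list. Averaged over genotypes, 639 of 8563 genes tested were higher and 732 lower after DSS at an adjusted p of at most 0.05, which is 16.0% of the genes (7.46% higher, 8.55% lower; edgeR's quasi-likelihood test on summed UMIs with Benjamini-Hochberg adjustment, 4 libraries against 4). Without WT untreated 2 the count of 1371 was 222, without WT DSS 2 it was 233 and without mutant untreated 1 it was 432. It was 656 without mutant DSS 2, 707 without mutant untreated 2 and 888 without WT DSS 1. The median change over all tested genes was 0.0096 log2 units. When libraries were scaled by their totals alone, that median was 0.18 and the calls split into 1345 higher and 449 lower, so changes are read relative to the median. The direction of each gene named as changed below was the same under that scaling. The list counts below are to be read beside the 16.0% called over all genes. A list with a share near it is not set apart by its count. In 1874 genes (21.9%) the 4 DSS and 4 untreated libraries did not overlap. The median C1q sum per member was lower in all 4 DSS libraries than in any untreated library, and so was the median of all UMIs in 3 of the 4, mutant DSS 2 (3432) lying above WT untreated 1 (3344). The part of these in the changes was not tested. A CPM level cannot tell apart a change in every cell from a change in the make-up of the members.

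MHC class II presentation had the lowest median of the 16 macrophage lists. Of 12 listed class II presentation genes, 8 fell, 1 rose and 3 (Ctss, Cd86 and Cd40) did not pass the test, with a median of -0.88 log2 units beside 0.0096 over all genes. The classical class II genes share a proximal promoter with a Y box, the reversed CCAAT element bound by NF-Y, close before the start of transcription, and the transactivator CIITA works through the factors assembled there. The stretches from 130 to 11 bases before the RefSeq start (assembly GRCm38.p6) of the 4 class II genes that fell and held the motif below follow, because these genes moved together. Capitals mark GATTGG, or CCAATC on the other strand, the letters searched on both strands. H2-Aa lies at chr17:34287834-34287953 on the minus strand, and H2-Eb1 (chr17:34305737-34305856), H2-DMb1 (chr17:34153061-34153180) and H2-DMb2 (chr17:34145119-34145238) on the plus strand.
H2-Aa: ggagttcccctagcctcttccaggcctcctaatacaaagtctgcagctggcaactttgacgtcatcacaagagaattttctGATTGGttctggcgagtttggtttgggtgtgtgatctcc
H2-Eb1: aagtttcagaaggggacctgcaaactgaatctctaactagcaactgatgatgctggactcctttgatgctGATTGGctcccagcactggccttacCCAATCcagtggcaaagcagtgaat
H2-DMb1: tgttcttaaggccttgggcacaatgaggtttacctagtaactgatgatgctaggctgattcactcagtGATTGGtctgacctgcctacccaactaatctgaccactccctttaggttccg
H2-DMb2: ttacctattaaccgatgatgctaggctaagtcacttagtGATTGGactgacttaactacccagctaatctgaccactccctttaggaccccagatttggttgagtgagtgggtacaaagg
The motif began 49 bases before the start in H2-Aa, 62 in H2-DMb1 and 91 in H2-DMb2. H2-Eb1 held it at 60 bases and, on the other strand, at 35. Of 32851 windows of this length from all genes in the table, 3190 (9.71%) held it on either strand. A match is a description of the letters and not a measured site. Of the 8 class II genes that fell, H2-DMa had 2 windows in the table and 0 of them held the motif, so the 4 printed are the ones that did. No sequence was taken for Ciita, Cd74 and H2-Ab1.

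Ciita, the master activator of class II transcription, was at 56.6 and 52.2 CPM in WT untreated, 83.2 and 50.7 CPM in mutant untreated, 25.4 and 16.6 CPM in WT DSS and 28.6 and 7.13 CPM in mutant DSS. All untreated libraries lay above all DSS libraries. It fell by 1.72 ± 0.30 log2 units (SE; edgeR adjusted p = 0.00503). A Ciita UMI was found in 408 of 2200 untreated and 85 of 1498 DSS members, counted without thinning although depth differed between libraries. The invariant chain Cd74, which escorts class II molecules to the endosome, was at 22604 and 26181 CPM in WT untreated and 24683 and 25153 CPM in mutant untreated. After DSS it was at 16008 and 13280 CPM in WT and 16425 and 7463 CPM in mutants, the lowest value being that of mutant DSS 2. It fell by 0.90 ± 0.21 log2 units (edgeR adjusted p = 0.014).

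H2-Ab1, the beta chain of I-A, was at 8651 and 10417 CPM in WT untreated, 10146 and 10222 CPM in mutant untreated, 6012 and 5466 CPM in WT DSS and 6160 and 3153 CPM in mutant DSS. The groups did not overlap, and it fell by 0.93 ± 0.19 log2 units (edgeR adjusted p = 0.00841). H2-Aa (-0.70 ± 0.16) and H2-Eb1 (-0.87 ± 0.18) fell to a like degree. Larger falls were seen in the H2-DM genes, whose product exchanges peptides on class II molecules. H2-DMa was at 649 to 813 CPM in untreated and 143 to 388 CPM in DSS libraries (-1.27 ± 0.23, edgeR adjusted p = 0.00572), H2-DMb1 changed by -0.94 ± 0.18 and H2-DMb2 by -1.57 ± 0.29. The costimulator Cd80 rose by 0.54 ± 0.14 log2 units (edgeR adjusted p = 0.0246). The calls of all of these genes except Ciita were lost without WT DSS 2, those of Cd74, H2-Ab1, H2-Aa, H2-Eb1, H2-DMb1 and Cd80 also without WT untreated 2, and those of Cd74, H2-Aa and Cd80 without mutant untreated 1. The highest adjusted p over these fits was 0.0879 for Cd74, 0.0645 for H2-Ab1, 0.0751 for H2-Aa, 0.0699 for H2-Eb1, 0.0505 for H2-DMa, 0.0549 for H2-DMb1 and 0.0512 for H2-DMb2, and that of Ciita was 0.0483. Cd80 also lost its call without mutant untreated 2 or mutant DSS 2 (highest adjusted p 0.117). In barcodes outside the macrophage gate, H2-Ab1 was at 880 to 1136 CPM untreated and 288 to 682 CPM after DSS, and its part in the result was not tested. The summed B or plasma cell genes overlapped between the treatments, as given above, while 1 of 6 tested (Ighm) fell. Their part was not tested either.

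**Figure D2:**
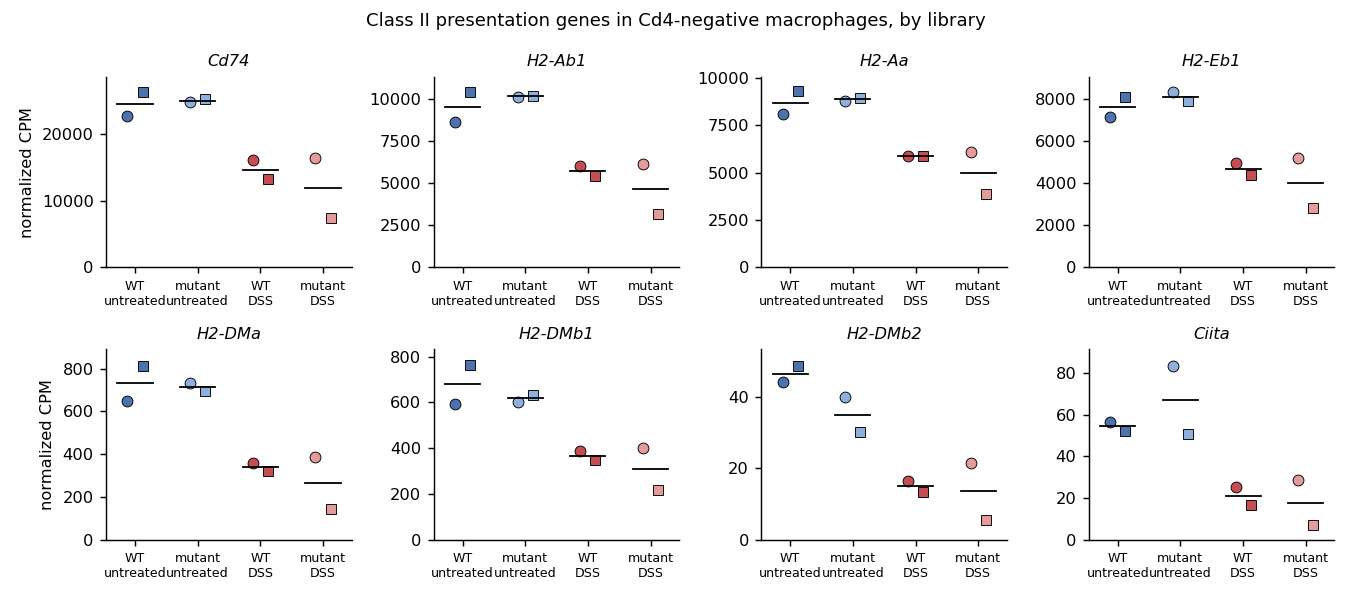
Normalised CPM of 8 class II presentation genes in the summed members of each library; circles are replicate 1, squares replicate 2, bars the mean of 2 libraries, and each axis starts at 0. Every untreated library lies above every DSS library for each gene, and mutant DSS 2 is the lowest, at 7463 CPM of Cd74 and 7.13 CPM of Ciita.

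Cxcl9 and Gbp2b, both known as targets of interferon-gamma, fell as well. Cxcl9, a ligand of the chemokine receptor CXCR3 of T cells, was at 493 and 439 CPM in WT untreated, 672 and 404 CPM in mutant untreated, 191 and 160 CPM in WT DSS and 134 and 113 CPM in mutant DSS. It fell by 1.77 ± 0.17 log2 units (edgeR adjusted p = 0.000171), with no overlap between treatments. Gbp2b, a guanylate-binding protein gene, was at 93.8 and 108 CPM in WT untreated, 139 and 92.6 CPM in mutant untreated, 24.2 and 9.49 CPM in WT DSS and 25.5 and 3.84 CPM in mutant DSS, and fell by 2.89 ± 0.35 log2 units (adjusted p = 0.000857). The DSS libraries were all low. Without thinning, it was detected in 604 untreated and 61 DSS members, and it lay between 0 and 0.854 CPM in fibroblast barcodes. In the interferon-induced list, 0 of 16 genes rose and 3 fell (Irf7, Ifitm3 and Bst2), with a median of -0.17 log2 units. That count is near the 16.0% called over all genes tested.

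Of 10 tested genes of the LYVE1 and FOLR2 tissue subset, 3 fell (Lyve1, Folr2 and Cbr2) and 0 rose, with a median of -0.43 log2 units. The folate receptor gene Folr2 was at 18.6 and 59.4 CPM in WT untreated, 31.4 and 32.5 CPM in mutant untreated, 5.51 and 7.12 CPM in WT DSS and 8.49 and 8.23 CPM in mutant DSS. The lowest untreated library was thus above the highest DSS library, and Folr2 fell by 2.25 ± 0.38 log2 units (edgeR adjusted p = 0.00397). A UMI was found in 197 untreated and 33 DSS members. After thinning to 1000 UMIs the share of members with Folr2 was 2.24% to 5.23% in untreated and 0.758% to 1.48% in DSS libraries (unthinned, 4.73% to 14.6% and 1.45% to 2.80%), and 0% in fibroblast barcodes. The median UMIs per barcode were 4167 to 7893 in fibroblast and 2077 to 3092 in T cell barcodes by library. Lyve1, a hyaluronan receptor, fell by 3.17 ± 0.54 log2 units (adjusted p = 0.00443), but it is also a lymphatic endothelial gene, and 13 of the 50 members with Lyve1 held a lymphatic UMI. The members without one held 98 of its 301 UMIs. By library these were 8 and 24 in WT untreated, 35 and 15 in mutant untreated, 0 and 0 in WT DSS and 1 and 15 in mutant DSS. Timd4, which encodes TIM-4, was found in 22 untreated members and 1 DSS member and was too low to test. Mrc1, the mannose receptor, was at 418 to 553 CPM untreated and 403 to 945 CPM after DSS (edgeR adjusted p = 0.305), with mutant DSS 2 the highest.

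Retnla, which encodes the secreted protein RELM-alpha of alternatively activated macrophages, was absent from the DSS members. It was at 69.7 and 385 CPM in WT untreated and 301 and 104 CPM in mutant untreated, and at 0 in all 4 DSS libraries. Against a floor of 3 UMIs over the DSS libraries, its summed UMIs scaled by library size were at least 401-fold lower (edgeR adjusted p = 0.000794). That bound counts UMIs and takes no account of how many cells held them. The transcript was held by few cells: 38 of 2200 untreated members carried it, and 1 member held 37.1% of its 2072 UMIs. Clec4b1, a C-type lectin receptor gene, fell by 2.51 ± 0.35 log2 units (edgeR adjusted p = 0.00178), from 13.9 to 28.7 CPM in untreated to 2.37 to 6.18 CPM in DSS libraries.

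Some of the named genes also moved in other cells. Tppp3 fell by 2.32 ± 0.20 log2 units (edgeR adjusted p = 5.55e-05), and in fibroblast barcodes it was at 229 to 338 CPM untreated and 30.6 to 116 CPM after DSS. Cavin2, Ccl21a and Mmrn1 also fell, and the last pair are lymphatic endothelial genes. The call of Mmrn1 was lost without any library but WT untreated 2 and mutant DSS 1 (highest adjusted p 0.455, without WT untreated 1). Without the 43 members holding lymphatic UMIs, which Ccl21a and Mmrn1 helped to choose, 26 of the 175 UMIs of Cavin2 were left, and all 3 genes were too low to test.

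The core macrophage genes changed in both directions. Of 16 listed identity genes, 2 rose (Mertk and Itgam), 9 fell (Fcgr1, Cx3cr1, Cd68, Aif1, Lyz2, Tyrobp, Fcer1g, Cd81 and Ms4a7) and 5 did not pass the test, with a median of -0.51 log2 units. Mertk, a receptor kinase through which macrophages engulf apoptotic cells, was at 20.4 and 14.7 CPM in WT untreated, 26.5 and 26.1 CPM in mutant untreated, 45.2 and 47.5 CPM in WT DSS and 41.7 and 98.7 CPM in mutant DSS. Every DSS library exceeded every untreated one, and Mertk rose by 1.42 ± 0.25 log2 units (edgeR adjusted p = 0.00462). Lysozyme (Lyz2) was at 5793 to 8819 CPM untreated and 2381 to 4885 CPM after DSS (-0.98 ± 0.21, adjusted p = 0.00981, lost without WT DSS 2 or WT untreated 2, highest adjusted p 0.0735). The tetraspanin Cd81 was at 678 to 945 and 287 to 501 CPM (-1.02 ± 0.19, adjusted p = 0.00583, lost without WT DSS 2 at adjusted p = 0.054). Csf1r (-0.21, adjusted p = 0.283) and Adgre1 (-0.47, adjusted p = 0.0717) did not pass edgeR's test. Of 6 tested complement genes other than C1q, 0 were called.

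Monocyte genes did not move together. Of 10 tested, 2 rose (Chil3 and Thbs1) and 3 fell (Ly6c2, Ccr2 and Plac8), with a median of -0.13 log2 units. Ccr2, the receptor for monocyte entry, was at 75.2 and 88.5 CPM in WT untreated, 86.3 and 83.9 CPM in mutant untreated, 35.3 and 42.7 CPM in WT DSS and 50.9 and 26.3 CPM in mutant DSS. The groups did not overlap, and it fell by 1.11 ± 0.19 log2 units (edgeR adjusted p = 0.00437, and 0.209 among the 603 members without other-lineage UMIs). Thinned to 1000 UMIs, 5.27% to 8.89% of untreated and 2.21% to 5.05% of DSS members held Ccr2 (unthinned, 17.2% to 22.9% and 7.24% to 10.8%), beside 10.4% to 23.2% of T cell barcodes and at most 0.811% of fibroblast barcodes. In all barcodes outside the macrophage gate, Ccr2 moved the other way, from 68.4 to 139 CPM untreated to 186 to 202.7 CPM after DSS.

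Chil3, the chitinase-like protein Ym1, was at 0.73 and 0.797 CPM in WT untreated, 3.83 and 3.17 CPM in mutant untreated, 1.1 and 19.8 CPM in WT DSS and 12.4 and 146 CPM in mutant DSS. It rose by 4.15 ± 0.94 log2 units (edgeR adjusted p = 0.0126). Mutant DSS 2 was the highest, and WT DSS 1 overlapped the untreated libraries. The call was lost without WT DSS 2, WT untreated 2 or mutant untreated 1 (highest adjusted p 0.614). In barcodes outside the macrophage gate Chil3 was at 0.765 to 2.07 CPM untreated and 7.69 to 90.4 CPM after DSS. The acute-phase gene Saa3 was likewise highest in mutant DSS 2, at 2823 CPM against 115 to 517 CPM in the other libraries, and did not pass the test (1.43, edgeR adjusted p = 0.118).

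Of 16 listed inflammatory mediators, 4 rose (Ptgs2, Inhba, Il1rn and Osm) and Tnf fell, with a median of 0.49 log2 units, the highest among the macrophage lists. Ptgs2, the prostaglandin-forming cyclooxygenase COX-2, was at 370 and 237 CPM in WT untreated, 176 and 188 CPM in mutant untreated, 589 and 792 CPM in WT DSS and 600 and 812 CPM in mutant DSS. It rose by 1.57 ± 0.18 log2 units (edgeR adjusted p = 0.000451) with no overlap. Inhba, which encodes the subunit of activin A, was at 9.58 to 37.9 CPM untreated and 50.9 to 120 CPM after DSS (1.81 ± 0.26, edgeR adjusted p = 0.00207), but the adjusted p of Inhba was 0.0942 among the 603 members without other-lineage UMIs. Il1b was abundant in all groups, at 1751 to 3199 CPM untreated and 2886 to 4132 CPM after DSS, and its difference did not pass the test (0.44, adjusted p = 0.116). Tnf went from 67.9 to 99.0 CPM to 49.4 to 64.2 CPM (-0.56 ± 0.15, adjusted p = 0.0259), a call that was lost without any 1 of 6 libraries (all but WT untreated 1 and mutant DSS 2; highest adjusted p 0.14). Il1rn lost its call without any library but mutant untreated 2 and mutant DSS 2, and Osm without any but WT DSS 1 and mutant DSS 1 (highest adjusted p 0.136 and 0.258).

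Among regulatory genes, 2 of 11 rose and 0 fell. Tnfaip3, which encodes the NF-kappaB inhibitor A20, was at 187 to 334 CPM untreated and 460 to 562 CPM after DSS (0.91 ± 0.17, edgeR adjusted p = 0.00651, and 0.053 without WT untreated 2). Il10, the cytokine by which gut macrophages restrain inflammation, was at 157 to 187 CPM untreated and 58.1 to 188 CPM after DSS, and did not pass the test (-0.46, adjusted p = 0.241). Il10rb, a chain of its receptor, rose by 0.54 ± 0.14 log2 units (adjusted p = 0.0187), and its call was lost without any 1 of 5 libraries (WT untreated 2, either mutant untreated library, WT DSS 2 or mutant DSS 2; highest adjusted p 0.105).

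Repair and matrix genes included 3 of 15 that rose (Vegfa, Mmp12 and Mmp14) and 1 that fell (Hbegf). Vegfa, the angiogenic growth factor, was at 199 and 172 CPM in WT untreated, 133 and 168 CPM in mutant untreated, 347 and 510 CPM in WT DSS and 296 and 525 CPM in mutant DSS. The DSS libraries were all higher, and the rise was 1.34 ± 0.19 log2 units (edgeR adjusted p = 0.00207). Mmp14, a membrane-bound collagenase, rose by 0.87 ± 0.13 log2 units, from 343 to 502 CPM to 699 to 781 CPM (adjusted p = 0.00216). Mmp12, macrophage elastase, rose by 0.86 ± 0.15 log2 units (adjusted p = 0.00462), but among the 603 members without other-lineage transcripts it changed by -0.45. Those members were few in some libraries (12 in mutant DSS 1, 20 in mutant untreated 2 and 22 in WT DSS 2, against 42 to 145 in the others), which bears on every value given for them. The matrix protein gene Thbs1 was at 1158 and 1207 CPM in WT untreated, 499 and 874 CPM in mutant untreated, 1918 and 3208 CPM in WT DSS and 1771 and 3189 CPM in mutant DSS, a rise of 1.49 ± 0.23 log2 units (adjusted p = 0.0026). Vcam1, an adhesion molecule for leukocytes, was at 268 to 515 CPM untreated and 1010 to 1871 CPM after DSS (1.71 ± 0.20, adjusted p = 0.000498). The treatments did not overlap for either gene. In fibroblast barcodes Thbs1 lay below the level of the DSS members in every library (288 to 592 CPM untreated, 413 to 572 CPM after DSS), as did Vcam1 (232 to 344 and 370 to 837 CPM).

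Engulfment, lipid and lysosome genes changed one by one. Of 14 engulfment and scavenging genes, Mertk and Cd300lf rose and Cd36 fell. Cd300lf, a lipid-binding receptor gene, was at 6.21 to 9.97 CPM untreated and 16.2 to 64.2 CPM after DSS (1.99 ± 0.36, edgeR adjusted p = 0.0055). Cd36, the scavenger receptor for oxidised lipids, was at 89.1 and 126 CPM in WT untreated, 96.6 and 71.2 CPM in mutant untreated, 25.4 and 21.4 CPM in WT DSS and 34.0 and 38.9 CPM in mutant DSS. Every DSS library was below every untreated one (-1.71 ± 0.18, adjusted p = 0.000367). Of 14 lipid genes, the cholesterol exporter Abca1 rose (0.90 ± 0.18, adjusted p = 0.00854) and Apoe (-0.70 ± 0.15, adjusted p = 0.0106) and Lgals3 (-0.83 ± 0.16, adjusted p = 0.00641) fell. Their calls were lost without WT DSS 2 or WT untreated 2, and those of Abca1 and Apoe also without mutant untreated 1 (highest adjusted p 0.0662, 0.0735 and 0.0579). Of 18 lysosomal genes, Lgmn, Ctsd and Psap rose and Ctsh fell. The protease gene Lgmn was at 1909 and 1316 CPM in WT untreated, 1325 and 1128 CPM in mutant untreated, 2326 and 2890 CPM in WT DSS and 2476 and 4059 CPM in mutant DSS, and rose by 1.05 ± 0.18 log2 units (adjusted p = 0.00476) without overlap. Of 10 iron genes, the haem-pathway reductase Blvrb fell by 1.20 ± 0.17 log2 units (adjusted p = 0.00207) and 0 rose.

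Other named genes that rose included glutathione enzymes. Gsr, glutathione reductase, was at 42.9 to 57.8 CPM untreated and 103 to 263 CPM after DSS (1.65 ± 0.25, edgeR adjusted p = 0.00216). Gpx3, a secreted glutathione peroxidase, rose by 2.03 ± 0.31 log2 units (adjusted p = 0.00221), from 7.92 to 13.03 CPM to 20.9 to 72.4 CPM. Gpx3 was far higher in fibroblast barcodes, at 654 to 934 CPM untreated and 686 to 1098 CPM after DSS. B3gnt5, a glycolipid-forming enzyme gene (1.80 ± 0.23, adjusted p = 0.000927), and the cytokine gene Clcf1 (1.65 ± 0.23, adjusted p = 0.00178) also rose, and among the 603 members without other-lineage UMIs Clcf1 did not pass (adjusted p = 0.18). The T cell gene Icos rose by 1.70 ± 0.32 log2 units (adjusted p = 0.00583) in these Cd3-negative barcodes, where it was at 4.60 to 56.4 CPM. The call was lost without mutant untreated 1 (adjusted p = 0.053) and among members with at least 20 C1q UMIs (adjusted p = 0.0882). In barcodes outside the macrophage gate Icos went from 281 to 468 CPM to 603 to 773 CPM.

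Of 16 chemokine genes, Ccl8, Ccl2 and Cxcl9 fell and Cxcl13 rose, with a median of -0.39 log2 units. Ccl8 was at 1467 and 1924 CPM in WT untreated, 1851 and 1415 CPM in mutant untreated, 1005 and 844 CPM in WT DSS and 719 and 486 CPM in mutant DSS. It fell by 1.16 ± 0.17 log2 units (edgeR adjusted p = 0.00215), and no DSS library reached an untreated one. Cxcl13, the B cell attractant, rose by 2.20 ± 0.44 log2 units (adjusted p = 0.00801), from 5.75 to 69.7 CPM to 61.7 to 240 CPM, and lost its call without WT DSS 2 or mutant untreated 1 (highest adjusted p 0.069). Within mutants Cxcl13 rose by 3.52 ± 0.67 log2 units (edgeR adjusted p = 0.0152), and within WT it was not called. The difference between these DSS effects was called only with the block of paired animals described below (2.48 ± 0.36, edgeR adjusted p = 0.0101). In fibroblast barcodes Cxcl13 was at 91.2 to 257 CPM untreated and 1171 to 4687 CPM after DSS.

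**Figure D3:**
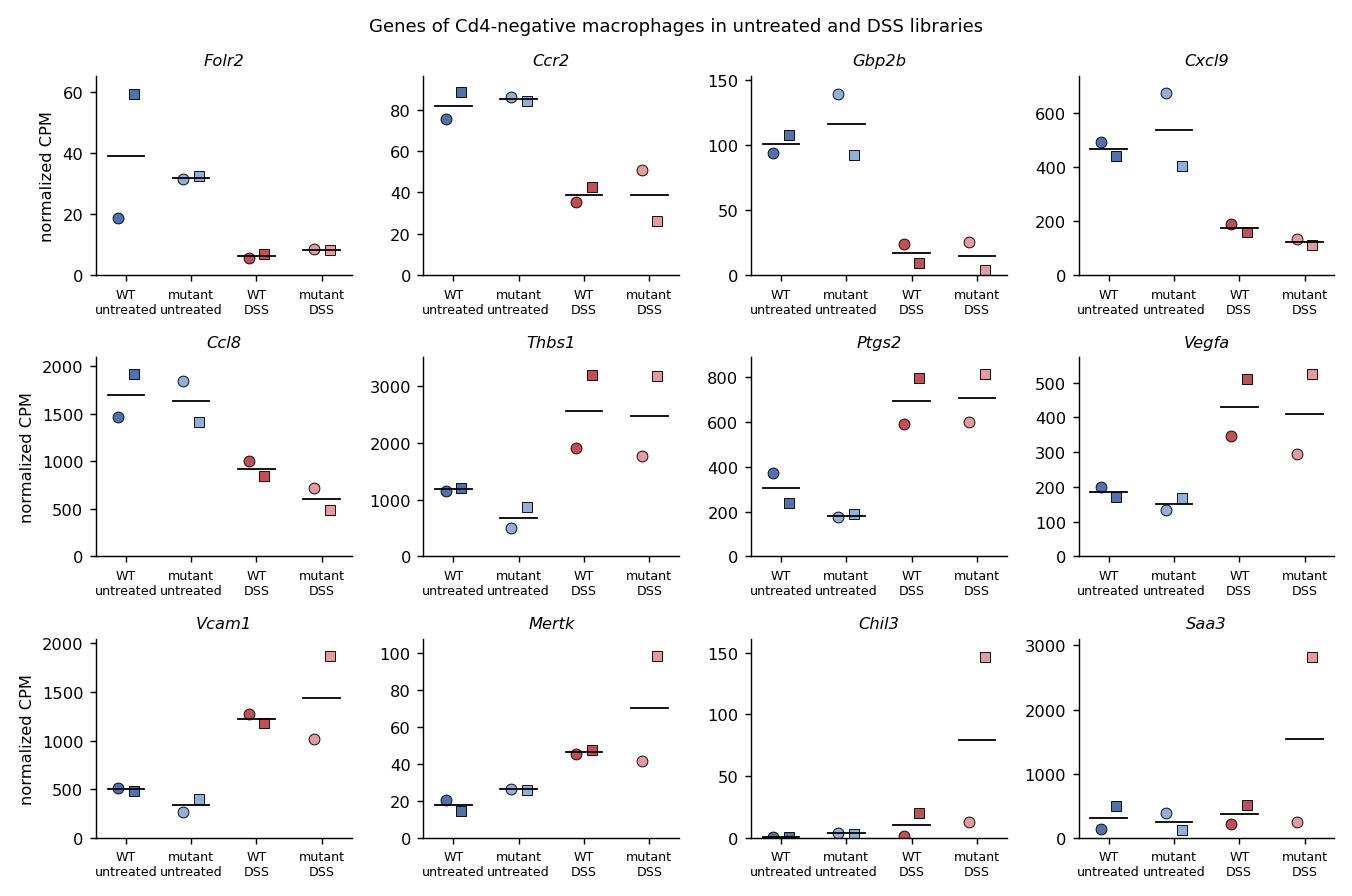
Normalised CPM of 12 genes in the summed members of each library, untreated and after DSS; circles are replicate 1, squares replicate 2, bars the mean of 2 libraries, and each axis starts at 0. The treatments do not overlap for the first 10 genes, whereas Chil3 and Saa3 are set apart by mutant DSS 2 at 146 and 2823 CPM.

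Hspa1a and Dnajb1 were highest in the mutant untreated libraries. Of 16 heat shock and early genes, 9 fell after DSS and 3 rose (Junb, Dusp1 and Zfp36), with a median of -0.76 log2 units. Within genotypes, 1 fell and 0 rose in WT (median -0.14), and 8 fell and 2 rose in mutants (median -1.09), while 0 of the 16 were called for the difference between those DSS effects. Hspa1a, an inducible HSP70 gene, was at 427 and 590 CPM in WT untreated, 4515 and 1640 CPM in mutant untreated, 843 and 236 CPM in WT DSS and 210 and 438 CPM in mutant DSS. It fell by 1.58 ± 0.38 log2 units averaged over genotypes (edgeR adjusted p = 0.0154), with a change of 0.08 ± 0.52 in WT and of -3.24 ± 0.56 in mutants, and the treatments overlapped. The call was lost without mutant untreated 1, WT untreated 2 or WT DSS 2 (highest adjusted p 0.0949), and Hspa1a did not pass with DESeq2. The HSP70 cochaperone gene Dnajb1 was at 185 and 266 CPM in WT untreated, 781 and 746 CPM in mutant untreated, 266 and 144 CPM in WT DSS and 138 and 156 CPM in mutant DSS. It changed by -0.15 ± 0.27 log2 units with DSS in WT and by -2.37 ± 0.27 in mutants. The difference between these did not pass edgeR's test over all genes (-2.22 ± 0.38, adjusted p = 0.388). It did with DESeq2, with no filter on low counts, among the 603 members without other-lineage UMIs (edgeR adjusted p = 0.0143), without WT DSS 2 (0.0296) and with the block of paired animals described with the genotype comparisons (-2.19 ± 0.33, adjusted p = 0.0101). In barcodes outside the macrophage gate, Hspa1a was at 683 to 2237 CPM untreated and 391 to 564 CPM after DSS. The part of transcripts from other cells in these values was not tested.

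Cell cycle genes gave 1 call of 7, Pcna, which rose by 0.46 ± 0.13 log2 units (edgeR adjusted p = 0.03). That call was lost without any library but mutant DSS 1 (highest adjusted p 0.116). Mki67 was at 65.6 to 140 CPM untreated and 102 to 149 CPM after DSS (adjusted p = 0.806).

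Among the markers of other cells, 2 of 8 T cell genes rose (Trbc2 and Lck) and Il7r fell, 2 of 3 tested neutrophil genes rose (S100a8 and Mmp8) and 1 of 6 B or plasma cell genes fell (Ighm). Of 2 tested squamous genes, Krt14 was called higher. It entered the test through the DSS libraries alone and could be called only as higher. Of the tested fibroblast (6), endothelial (3), dendritic (2) and mast cell (1) genes 0 were called, and the columnar epithelial genes were too low to test. The 8 mast cell genes summed to 289 CPM in mutant untreated 2 and to 4.78 to 13.5 CPM in the other 7 libraries, and 1 member of that library held all 220 Mcpt1 and all 120 Mcpt2 UMIs. S100a8 of neutrophils rose by 2.70 ± 0.74 log2 units (edgeR adjusted p = 0.0265) at 0.365 to 14.2 CPM, and it went from 2.80 to 9.25 CPM to 67.8 to 285 CPM in barcodes outside the macrophage gate. The squamous keratins Krt5, Krt6a, Krt13 and Krt14 had no UMI in untreated members. Against a floor of 3 UMIs over the untreated libraries, their summed UMIs scaled by library size were at least 26.4-, 21.8-, 20.1- and 14.9-fold higher after DSS. WT DSS 1 held 35 of the 46 Krt5, 28 of the 38 Krt6a and 31 of the 35 Krt13 UMIs but 6 of the 26 of Krt14. Without it the bounds for Krt5, Krt6a, Krt13 and Krt14 were 7.63-, 6.94-, 2.77- and 13.9-fold. Their part in other changes was not tested.

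**Figure D4:**
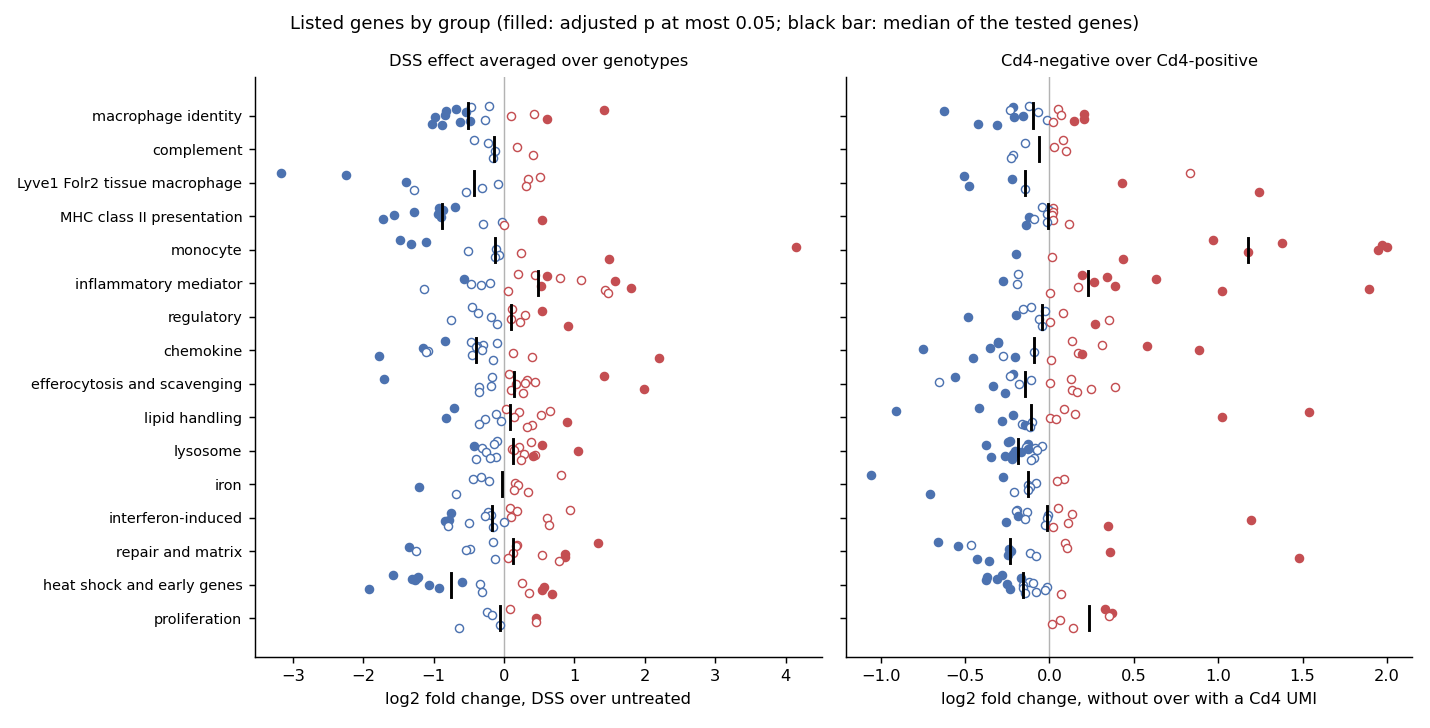
Log2 fold change of each tested gene in 16 lists: DSS over untreated averaged over genotypes (left), and macrophages without over with a Cd4 UMI (right). Filled points have an adjusted p of at most 0.05, colour gives the sign and black bars are list medians, which run from -0.88 (class II presentation) to 0.49 (inflammatory mediators) on the left and reach 1.18 (monocyte) on the right.

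Within each genotype, with 2 libraries a side, fewer genes passed. In WT, 11 of 8563 genes fell and 0 rose (0.128%). They were Retnla, Tppp3, Crip1, Cd36, AY036118, S100a10, Tmsb10, S100a6, Atf3, Cxcl9 and Vim. Cd36 changed by -2.21 ± 0.27 log2 units in WT (edgeR adjusted p = 0.00346) and by -1.21 ± 0.24 in mutants (adjusted p = 0.0179), and Cxcl9 by -1.41 ± 0.24 (adjusted p = 0.0404) and -2.13 ± 0.25 (adjusted p = 0.00148). In mutants 275 genes rose (3.21%) and 305 fell (3.56%), together 6.77%, or 740 and 227 when libraries were scaled by their totals alone. Markers of fibroblasts were among them, since 3 of 6 tested rose in mutants (Col1a2, Dcn and Mgp, list median 1.52 log2 units) and 0 of 6 were called in WT (list median -0.56). For the difference between these DSS effects 0 of 6 were called. With the block of paired animals described below, Dcn was called for it (2.74 ± 0.44 log2 units, edgeR adjusted p = 0.0154). Dcn, a matrix proteoglycan gene, was at 20.7 and 10.3 CPM in mutant untreated and 45.5 and 100.4 CPM in mutant DSS (2.16 ± 0.36, edgeR adjusted p = 0.0113), and 1 member held 124 of its 270 UMIs in all DSS libraries. All 3 calls were lost without mutant DSS 2 or either mutant untreated library, those of Col1a2 and Mgp also without either WT untreated library and that of Col1a2 without either WT DSS library (highest adjusted p 0.0972 for Dcn, 0.349 for Col1a2 and 0.488 for Mgp). The part of fibroblast transcripts in the mutant count was not tested. Among the class II presentation genes, 8 of 12 fell in mutants and 0 of 12 passed in WT, where Ciita changed by -1.40 ± 0.44 (edgeR adjusted p = 0.186) beside -2.03 ± 0.43 in mutants (adjusted p = 0.020). The difference between the genotypes for Ciita was -0.62 ± 0.63 log2 units (adjusted p = 1.0). Without mutant DSS 2, the library with the lowest class II levels, the mutant count was 36 genes, and without mutant untreated 1 it was 9. Without WT DSS 2 the WT count was 0, and without mutant DSS 2 it was 77.

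Between mutant and WT macrophages 0 genes passed in the planned fit, and the calls of other fits changed with the fit. With all 8 libraries and no block for pairs of animals, of 8563 genes 0 (0.0%) passed edgeR's quasi-likelihood test in untreated mice, after DSS, averaged over treatments and for the interaction of genotype with DSS. Without adjustment, 350, 209, 278 and 272 genes had a p under 0.05 in these comparisons. In untreated mice, 9 genes passed when only those 4 libraries were fitted, 2 with at least 20 C1q UMIs (Dnajb1 and Hspb1) and 67 with no filter on low counts. With WT and mutant animals of neighbouring title numbers as a block, a pairing that the labels do not state and that was chosen after seeing the data, 17, 5, 1 and 8 genes passed (0.199%, 0.0584%, 0.0117% and 0.0934% of 8563). The block left few residual degrees of freedom, and the calls listed next are those of that fit. Of the 17 in untreated mice, 4 were among the 16 genes of the heat shock and early list (Dnajb1, Hsph1, Hsp90aa1 and Hspa1a), and Dnajb1 was higher in mutants by 1.78 ± 0.23 log2 units (edgeR adjusted p = 0.00335). Outside that list, the heat shock protein genes Hspd1, Hspe1 and Hspb1 and the DnaJ genes Dnajb4 and Dnaja1 were higher in mutants. So were Bag3, Zfand2a, Polr2l and Hes1. Polr2l had 95 and 102 UMIs in WT untreated and 528 and 77 in mutant untreated, not scaled for library size. Mutant untreated 1, with the 528, also held all UMIs of Pbsn and Msmb, known from male accessory glands. Lower in untreated mutants were Inhba (-1.42 ± 0.27, adjusted p = 0.0444), Cxcl13 (-1.82 ± 0.28, adjusted p = 0.0159), Icos (-1.91 ± 0.38, adjusted p = 0.0489) and Runx2 (-1.36 ± 0.26, adjusted p = 0.0444). Icos is known as a T cell costimulator gene. After DSS, 4 genes were called higher in mutants and Gm26870 lower. The 4 were Chil3 (2.92 ± 0.30 log2 units, edgeR adjusted p = 0.000112), Tagln (3.50 ± 0.48), Dcn (2.52 ± 0.31) and Slpi (1.52 ± 0.26). Chil3 was highest in mutant DSS 2, and 1 member held a large part of the Dcn UMIs after DSS, as given above. The interaction calls were Dnajb1, Hspb1, Hspd1, Hspe1, Cxcl13, Dcn, Tagln and Mzb1, the last from the B or plasma cell list. DESeq2 without the block called Dnajb1 in untreated mice and in the interaction, Dcn (a fibroblast gene) after DSS and 0 genes on average. Dnajb1 was 1.76 ± 0.26 log2 units higher in untreated mutants than in untreated WT mice, the lowest edgeR adjusted p in that comparison being 0.110. H2-Ab1 differed between the genotypes by 0.10 ± 0.26 log2 units untreated (adjusted p = 0.998) and by -0.30 ± 0.27 after DSS (adjusted p = 1.0). Mertk differed by 0.57 ± 0.36 and 0.62 ± 0.33, and Csf1r by -0.09 ± 0.18 and -0.08 ± 0.18, log2 units in the same comparisons. A gene that misses the threshold with 2 libraries a side is not thereby shown to be at the same level.

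Compared with the Cd4-positive macrophages of the same library, the Cd4-negative ones had more transcript of monocyte genes and less of lysosomal genes. Of 7524 genes tested with the library as a block, 584 were higher and 498 lower in Cd4-negative cells (14.4%; 7.76% higher, 6.62% lower), and 397 (5.28%) were higher and 281 (3.73%) lower in all 8 libraries. Only the Cd4 count chose the split, and it also sorted cells by depth. The median UMIs of Cd4-positive cells were 4270.5 and 5213 in WT untreated, 5856 and 5354 in mutant untreated, 3676 and 2819.5 in WT DSS and 3220 and 3834.5 in mutant DSS, above those of the members in every library but WT DSS 2. With both sums limited to barcodes of 2000 to 10000 UMIs, 584 genes were higher and 527 lower, and 987 of the calls were shared.

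Of 9 tested monocyte genes, 7 were higher in Cd4-negative cells (Ly6c2, Ccr2, Plac8, Fn1, Hp, Clec4e and Thbs1) and 1 was lower (Itgal), with a median of 1.18 log2 units beside -0.0039 over all genes. Ccr2 was at 75.4 and 89.7 CPM without and 37.0 and 24.7 CPM with Cd4 in WT untreated, and at 88.3 and 85.0 against 20.1 and 16.4 CPM in mutant untreated. In WT DSS it was at 35.2 and 42.8 against 20.9 and 34.0 CPM, and in mutant DSS at 50.8 and 26.5 against 25.7 and 22.1 CPM. It was higher without Cd4 in 8 of 8 libraries, by 1.38 ± 0.15 log2 units (edgeR adjusted p = 2.32e-07). Plac8 was higher in 8 of 8 libraries (1.97 ± 0.18, adjusted p = 4.89e-09; 102 ± 77.1 CPM without and 24.0 ± 13.1 CPM with Cd4, SD, n = 8). The fibronectin gene Fn1 was higher in 7 of 8, the exception being WT untreated 1 (2.00 ± 0.27, adjusted p = 3.33e-06). Ly6c2, the marker of inflammatory monocytes, was higher in 5 of 8 (0.97 ± 0.27, adjusted p = 0.0135), the exceptions being 3 of the 4 DSS libraries (WT DSS 1, WT DSS 2 and mutant DSS 1), and its call was lost without WT untreated 2 or mutant DSS 2 (highest adjusted p 0.135). In fibroblast barcodes Plac8 was at 968 to 1069 CPM untreated and Fn1 at 1726 to 2164 CPM, far above either macrophage sum, whereas Ccr2 was there at 2.67 to 7.42 CPM in all libraries. Dcn was higher without Cd4 in 8 of 8 libraries as well (0.59 ± 0.15, adjusted p = 0.0077; 30.2 ± 30.6 CPM without and 21.02 ± 31.0 CPM with Cd4), but not at 20 C1q UMIs or more (adjusted p = 0.80) or between 2000 and 10000 UMIs (adjusted p = 0.0881). The part of free transcripts was not tested.

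The named genes with the largest differences in this direction included Inhba, S100 calcium-binding proteins and secreted products. Inhba was at 52.9 ± 36.0 CPM without and 12.0 ± 6.16 CPM with Cd4 (1.89 ± 0.20, edgeR adjusted p = 1.06e-07, higher in 8 of 8 libraries). S100a4 (1.71 ± 0.16), S100a6 (1.48 ± 0.15), the osteopontin gene Spp1 (1.54 ± 0.20), the protease inhibitor gene Slpi (1.52 ± 0.19) and the coagulation factor gene F10 (1.43 ± 0.17) were likewise higher in 8 of 8. Of 12 tested inflammatory mediators, 7 were higher and Tnf was lower. Il1b was higher by 0.19 ± 0.04 log2 units (adjusted p = 0.00229, 7 of 8 libraries). Ifitm3, an antiviral membrane protein gene, was at 330 ± 125 CPM without and 141 ± 46.9 CPM with Cd4 (1.20 ± 0.08, adjusted p = 1.06e-11, 8 of 8).

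Most lysosomal genes were lower in the Cd4-negative cells. Of 18 lysosomal genes, 12 were lower in Cd4-negative cells and 0 higher, with a median of -0.19 log2 units. Ctsd, cathepsin D, was at 872 ± 173 CPM without and 1146 ± 294 CPM with Cd4 (-0.37 ± 0.05, edgeR adjusted p = 4.08e-06, lower in 8 of 8 libraries). Gpnmb, a lysosomal membrane glycoprotein gene of phagocytes, was at 124 ± 39.5 and 232 ± 77.7 CPM (-0.91 ± 0.07, adjusted p = 3.94e-10, lower in 8 of 8). Ccl8 was at 1225 ± 544 and 2073 ± 982 CPM (-0.75 ± 0.05, adjusted p = 1.34e-11, 8 of 8), and the iron exporter gene Slc40a1 (ferroportin) differed by -1.05 ± 0.20 (adjusted p = 0.000309, 8 of 8). The fractalkine receptor gene Cx3cr1 (-0.63 ± 0.06), Igf1 (-0.66 ± 0.08), Apoe (-0.42 ± 0.03) and Cd81 (-0.42 ± 0.05) were lower in 8 of 8 libraries. Folr2 was lower in 7 of 8 (-0.50 ± 0.11, adjusted p = 0.00113). Epb41l3, a membrane skeleton gene (-1.32 ± 0.15), and the ceruloplasmin gene Cp (-0.84 ± 0.09) were among the named genes with the largest differences.

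Of the 12 class II presentation genes, 0 were higher in Cd4-negative cells and 2 lower (Cd74 and Ctss; Cd74 lost its call without WT untreated 1, mutant untreated 2 or mutant DSS 2, highest adjusted p 0.0833), with a median of -0.01 log2 units. Of 16 identity genes, 3 were higher (Cd14, Itgam and Tyrobp) and 6 lower, with a median of -0.09 log2 units. Csf1r was not among the called genes. Of 6 tested proliferation genes, Mki67 and Top2a were higher in Cd4-negative cells. The call of Mki67 was lost without WT untreated 2 (adjusted p = 0.0665), and that of Top2a without that library, mutant untreated 2, WT DSS 1 or either mutant DSS library (highest adjusted p 0.154). In the other lists the numbers higher and lower were 3 and 6 of 15 chemokines, 0 and 4 of 14 engulfment genes, 2 and 5 of 14 lipid genes, 0 and 3 of 10 iron genes, and 2 and 2 of 15 interferon-induced genes. They were 2 and 7 of 14 repair genes, 0 and 7 of 16 heat shock and early genes, 1 and 2 of 11 regulatory genes, 2 and 3 of 7 tissue-subset genes and 0 of 6 complement genes. Among the markers of other cells, 2 of 2 tested dendritic cell genes were higher without Cd4 (Ccr7 and Ccl22), as was 1 of 2 fibroblast genes (Dcn, above), while 1 of 6 T cell genes (Cd28) and 1 of 5 B or plasma cell genes (Ighm) were lower. Ccl22 did not pass at 20 C1q UMIs or more (adjusted p = 0.134), and neither Ccl22 nor Cd28 passed with DESeq2 (adjusted p = 0.101 and 0.131).

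**Figure D5:**
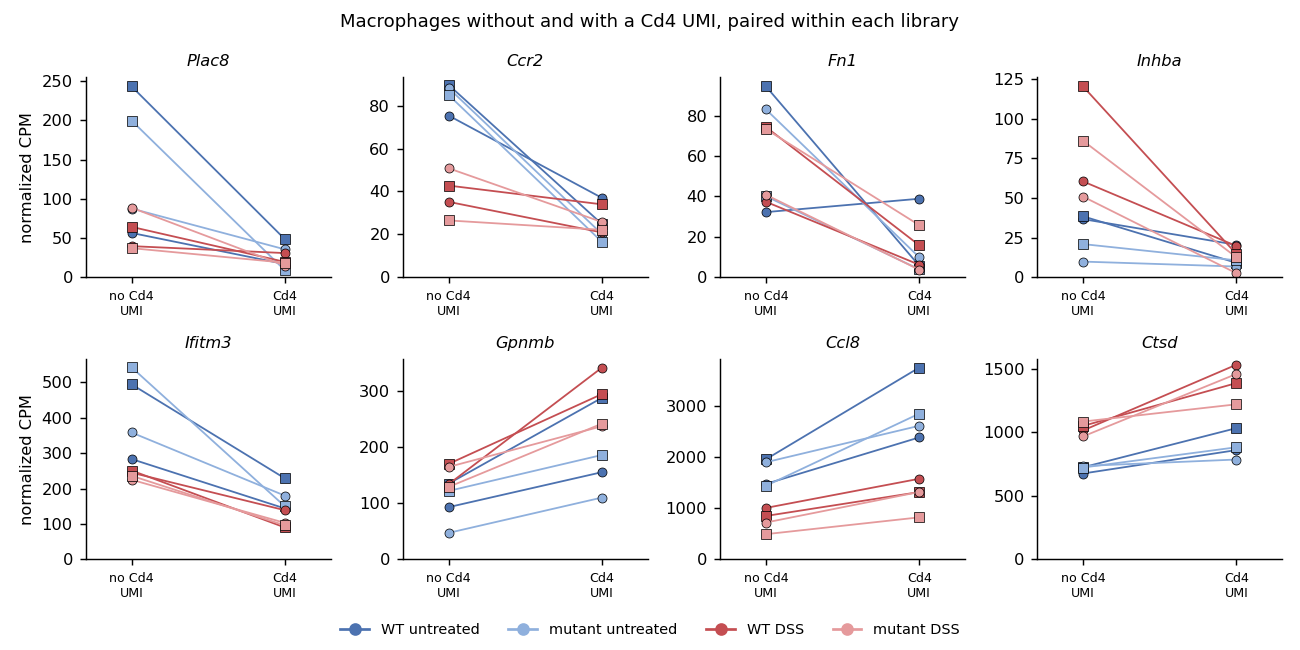
Normalised CPM of 8 genes in macrophages without (left) and with (right) a Cd4 UMI; each line joins the pair of sums of 1 library, colours give the group, circles replicate 1 and squares replicate 2, and axes start at 0. Plac8, Ccr2, Inhba and Ifitm3 are higher without Cd4 and Gpnmb, Ccl8 and Ctsd lower in 8 of 8 libraries, and Fn1 is higher in 7 of 8.

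The members themselves were not uniform. After thinning to 1000 UMIs, Il1b was detected in 53.2% to 83.6% of members by library, against 1.35% to 6.22% of fibroblast barcodes. Mrc1 was detected in 26.3% to 55.2% and at most 3.57% of fibroblast barcodes, Cx3cr1 in 9.05% to 24.0% and at most 0.811%, and Trem2 in 6.32% to 11.9% and at most 0.27%. Unthinned, the shares of members were 72.4% to 90.5% for Il1b, 61.2% to 83.9% for Mrc1, 18.2% to 51.1% for Cx3cr1 and 20.1% to 33.8% for Trem2. Between 2 and 8 members a library had under 1000 UMIs and were left out.

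Tissue-subset and monocyte transcripts were each seen in few members. Among thinned members, 79 untreated ones held a UMI of Folr2 or Timd4 alone, 175 a UMI of Ccr2 or Ly6c2 alone and 1 held both, while after DSS the numbers were 17, 57 and 0. With detection this sparse, the low number holding both says nothing of whether the genes exclude each other. These sets were formed after their values were seen and carry no test. In untreated libraries the Folr2 or Timd4 set made up 2.64% to 5.39% of members and after DSS 0.758% to 1.85%. Its untreated members averaged 0.848 Mrc1, 1.47 Pf4 and 4.04 Ccl8 UMIs per 1000, against 0.337, 0.44 and 0.52 in the Ccr2 or Ly6c2 set. Untreated members with a UMI of none of the 4 genes averaged 0.510, 0.588 and 1.78. These means are pooled over cells, so libraries with more members weigh more. H2-Ab1 was at 6.72 UMIs per 1000 in the Folr2 or Timd4 set and 9.56 in the Ccr2 or Ly6c2 set untreated, and at 2.29 and 5.67 after DSS. By DSS library (WT 1, WT 2, mutant 1 and mutant 2) it was at 3.8, 3.33, 1.67 and 0.833 in the former. In the latter it was at 5.33, 6.36, 7.23 and 2.87. Members with a UMI of none of the 4 genes had 9.35 H2-Ab1 UMIs per 1000 untreated and 5.46 after DSS. That set was 85.0% to 95.9% of the thinned members of a library, and the Folr2 or Timd4 set after DSS held 3 to 6 members a library.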

How the data were processed

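What the authors deposited was a matrix of UMI counts for each library (a gene per row, a barcode per column), a list of 31053 gene symbols in row order and a list of the cells they kept. The counts were whole and were not rescaled before use. Per the submitters' processing notes, Cell Ranger 3.1.0, Seurat 4.0.1 and mm10 were used, with no role given, and the barcode calling is not given in the sources used here. Of 30934 row identifiers found in a table of gene names, 30468 (98.5%) carried the listed symbol.

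Members were taken by the rule in the opening of the results, and their UMIs were summed per library (874741 to 2848390 counts). No doublet caller was run, and the limits on Cd3, Col3a1 and Cd79a remove some doublets only. Genes were tested with edgeR 4.0.16 (TMM, filterByExpr, quasi-likelihood test, no covariate; R 4.3.3) in 1 fit over the 4 groups of 2 libraries, with Benjamini-Hochberg adjustment over all genes tested and a threshold of 0.05. For Cd4-negative against Cd4-positive sums the library was a block. Shares were compared with two-sided exact permutation tests (scipy 1.17.1, Python 3.11.15). Groups come from the sample titles. CPM values of members and of Cd4-positive macrophages use TMM-scaled library sizes, and ± after a log2 change is its standard error. CPM values of all other barcodes (fibroblast and T cell barcodes included) and of the bands around the C1q cut use UMI totals alone. The ratios of members to other barcodes do so too. The edgeR fits (by group, with the library as a block and with pairs of animals as a block) were tested on simulated data. The DESeq2 fits and the permutation tests were not.

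The members and gene lists were chosen with earlier results of these data known. Genes named are the 10 called genes with the largest fold change in each direction with a mean of at least 20 CPM in the higher group (without immunoglobulin, T cell receptor, haemoglobin, mitochondrial, Gm-numbered and Rik genes), called members and up to 4 of the most abundant members of each list, and the genes of the rule. The markers of other cells and list members outside this rule were named after their values were seen. Alternatives were DESeq2 1.42.0, RLE scaling, no filter on low counts, at least 20 C1q UMIs, 603 members without other-lineage UMIs, fits of only the libraries compared, a window of depth, pairs of animals as a block and leaving out each library. Promoter sequences are from RefSeq (GRCm38.p6). 1 result is not reported here.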

Additional observations from a re-analysis of the deposited data

How the results depend on the processing

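Most counts of called genes moved with the processing, and the cause was not tested. For the DSS effect averaged over genotypes (1371 genes), DESeq2 called 755 genes, the cut at 20 C1q UMIs 910 and the 603 members without other-lineage UMIs 332. Leaving out 1 library gave 222 (without WT untreated 2) to 1594 genes. The DSS effect in WT (11) became 69 with DESeq2, 307 with no filter, 7 without other-lineage UMIs and 105 with only the 4 libraries compared, and 0 (without WT DSS 2) to 77 with 1 library left out. The DSS effect in mutants (580) became 369 with DESeq2, 1068 with no filter, 384 at 20 C1q UMIs, 218 without other-lineage UMIs, 967 on library totals alone and 160 with only the 4 libraries compared, and 9 (without mutant untreated 1) to 869 with 1 left out (36 without mutant DSS 2, 41 without mutant untreated 2). Against 0 calls as reported, the mutant effect in untreated mice gave 1 gene with DESeq2, 67 with no filter, 2 at 20 C1q UMIs, 9 with only the 4 libraries compared (Bag3, Dnajb1, Hspa1a, Hspa1b, Hspb1, Hspd1, Hsph1, Il22ra2 and Zfand2a) and 0 to 7 with 1 left out (7 without mutant untreated 2). Of those 7, Pbsn, Msmb, Defb50, 9530002B09Rik and 9530053A07Rik had UMIs in mutant untreated 1 alone, as did Svs5 but for 4 UMIs, and Polr2l had 528 of its 1166 there; Pbsn, Svs5 and Msmb are known from male accessory glands. The mutant effect after DSS gave 1 with DESeq2, 30 with no filter and 0 to 3, the mutant effect averaged over treatments 24 with no filter and 0 to 1, and the interaction 1 with DESeq2, 42 with no filter, 2 without other-lineage UMIs and 0 to 4. Cd4-negative against Cd4-positive sums (1082) gave 473 with DESeq2 and 86 of 2484 tested without other-lineage UMIs. The DSS difference in the share without Cd4 (0.931 percentage points) turned to -3.24 after thinning, -1.24 at 20 C1q UMIs and, with 1 library left out, ranged from -0.365 to 2.39. Among the 603 members without other-lineage UMIs, Mmp12 turned to -0.45 for DSS, and, for Cd4-negative against Cd4-positive macrophages, Ccl3 turned to 0.0898 and Cxcl10 to 0.13. Of the 84 named genes called for DSS, 32 were called in every fit with 1 library left out, as were 85 of 112 for the Cd4 comparison, 0 of 10 for DSS in WT and 1 of 21 in mutants. Of the 84, calls were lost by 9 with DESeq2 (of 81 with a value), 13 at 20 C1q UMIs, 23 of 70 without other-lineage UMIs and 9 on library totals. Of the 112 for the Cd4 comparison, 32 were lost with DESeq2, 26 of 108 at 20 C1q UMIs and 45 of 75 without other-lineage UMIs. In WT 6 of 10 were lost without other-lineage UMIs, and in mutants 4 of 19 at 20 C1q UMIs. The scaling on library totals and the removal of members with lymphatic UMIs were chosen after seeing the data. The titles carry animal numbers that are not shared between groups but neighbour each other across genotypes. A block of WT and mutant neighbours, also chosen after seeing the data, gave 17 genes for the mutant effect in untreated mice, 5 after DSS, 1 on average and 8 for the interaction, with few residual degrees of freedom. Over 8563 genes, the differences between the pairs correlated between WT and mutant libraries (Pearson r across genes, which are not independent) at 0.106 untreated and 0.228 after DSS. The labels do not say that the numbers mark litters or days, and DSS effects could not be fitted within pairs. Depth limits rare genes: 3 UMIs was the floor used for genes with no count.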
